A study of Mus musculus with 16 samples.

Results

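The late step of the tissue response to injury in mouse striatum was examined by setting libraries taken 15 d after an injection of ATP against libraries taken 3 d after it. The 8 libraries of these 2 times, of 16 in the series, were chosen by their labelled times, with both genotypes together and no measured value used. The 15 d side held GS ATP 15 d (2 libraries) and WT ATP 15 d (2 libraries), and the 3 d side held GS ATP 3 d (2 libraries) and WT ATP 3 d (2 libraries). GS was read as carriage of the LRRK2 G2019S allele named in the series title, and WT as wild type. All 8 came from striatum that received 0.8 µl of 500 mM ATP on one side of the brain, so injection and ATP are shared by both times and are not what is compared. Uninjected striatum (GS intact and WT intact, 2 libraries each) is given for context. Strain, age, sex, pooling of animals and whether the allele is a knock-in or a transgene are not stated in the labels used here. The labels call the replicates biological. Nothing says in more detail that they came from separate animals, so p-values measure the spread between these samples. A library is written below by genotype, time and replicate number, for example GS 15 d rep 2.

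ATP released from damaged cells is a danger signal that purinergic receptors on microglia, the resident macrophages of the brain, detect. After a focal brain injury microglia, entering blood monocytes, astrocytes and vessel-associated fibroblasts proliferate and produce inflammatory factors. In the following weeks division wanes, phagocytes clear lipid-rich debris, and astrocytes and fibroblasts form a scar of glial processes and extracellular matrix. The comparison of 15 d with 3 d asks which of the genes known from these phases differed between the later and the earlier time.

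The 8 libraries held 49220578 to 63948110 counts over 19457 genes, and mitochondrial genes took 10.3 to 12.9% of them. Levels are given in CPM, a gene's counts per 1000000 counts of its library, after scaling by TMM, an edgeR method that corrects for composition. Replicate pairs had a Pearson r of 0.992 to 0.995 over genes in log2 CPM, and genes are not independent replicates. Genes of striatal projection neurons, which mark the labelled tissue, summed to 11657 to 12781 CPM at 15 d and 12812 to 15224 CPM at 3 d. The cortical neuron gene Slc17a7 ranged over 4.47 to 35.0 CPM at 15 d and 5.40 to 9.39 CPM at 3 d. Each of the 19457 genes has at least 1 count in all 16 libraries, and genes with a zero in any library are not analysed here. This leaves out S100a8, S100a9 and Ly6g of neutrophils, Cd3d, Cd3e and Cd3g of T cells, Cd79a, Cd79b and Ms4a1 of B cells, Ccr2 of monocytes, and Il1b, Tnf, Il6 and Ccl2. Some libraries stood apart. WT 3 d rep 1 had the lowest summed mitosis genes of its time, 124 CPM against 203 to 311 CPM in the other 3 d libraries, and the highest meningeal genes, 306 CPM against 106 to 128 CPM. WT 15 d rep 1 had the highest Slc17a7, and the lowest microglial genes of its time. Choroid plexus genes, which come from tissue beside the striatum, summed to 295 to 656 CPM at 15 d and 259 to 503 CPM at 3 d, so the ranges overlapped. The counts are from bulk tissue, in which fewer cells of a type and less RNA per cell cannot be told apart.

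Between 15 d and 3 d 1543 of 18646 genes tested passed an edgeR quasi-likelihood test with genotype as a covariate at a Benjamini-Hochberg adjusted p under 0.05, which is 8.28% of them. Of these, 841 were higher at 15 d (4.51%) and 702 were lower (3.76%). Changes of at least 2-fold were seen in 135 of the higher and 114 of the lower genes, and the median log2 fold change over all genes tested was 0.0054. These shares and this median are the background for each gene list below. The 4 libraries at 15 d all stood above the 4 at 3 d for 1516 genes (8.13%) and all below them for 1522 genes (8.16%). In comparison with intact striatum, 8803 of 18653 genes tested passed at 15 d (47.2%), with 4444 higher (23.8%) and 4359 lower (23.4%). Of the 702 genes that were lower at 15 d than at 3 d, 190 were still above intact striatum and 281 below it, while of the 841 genes higher than at 3 d, 572 were above intact striatum and 48 below it. Both comparisons use the 15 d libraries, so their values are set side by side and not correlated.

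Both genotypes were read together. An interaction of genotype and time passed for 0 genes (0%) by edgeR, with 539 at an unadjusted p under 0.05 and 12 passing by DESeq2. Tested within 1 genotype, 454 of the genes tested passed in GS (2.47%) and 5 in WT (0.0271%), and whether that gap is one of genotype or of the spread of the WT libraries was not tested. Lrrk2, the kinase gene that the allele is named for, stood at 123 and 113 CPM (GS) and 112 and 109.9 CPM (WT) at 15 d, against 171 and 178 CPM (GS) and 208 and 157 CPM (WT) at 3 d. All 4 libraries at 15 d lay below all 4 at 3 d (log2 fold change -0.64 ± 0.083, edgeR adjusted p = 0.00314). In intact striatum Lrrk2 averaged 171 ± 34.3 CPM (SD, n = 4). A gene count does not tell the G2019S allele from the wild-type one, and how the allele was introduced is not stated. Lrrk2 levels therefore do not check the genotype labels. The count of genes passed depended on single libraries. It was 1012 without WT 3 d rep 1, 861 without GS 3 d rep 1 and 998 without GS 3 d rep 2. It was 528 without WT 15 d rep 2, 665 without GS 15 d rep 1 and 545 without GS 15 d rep 2.

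**Figure D1:**
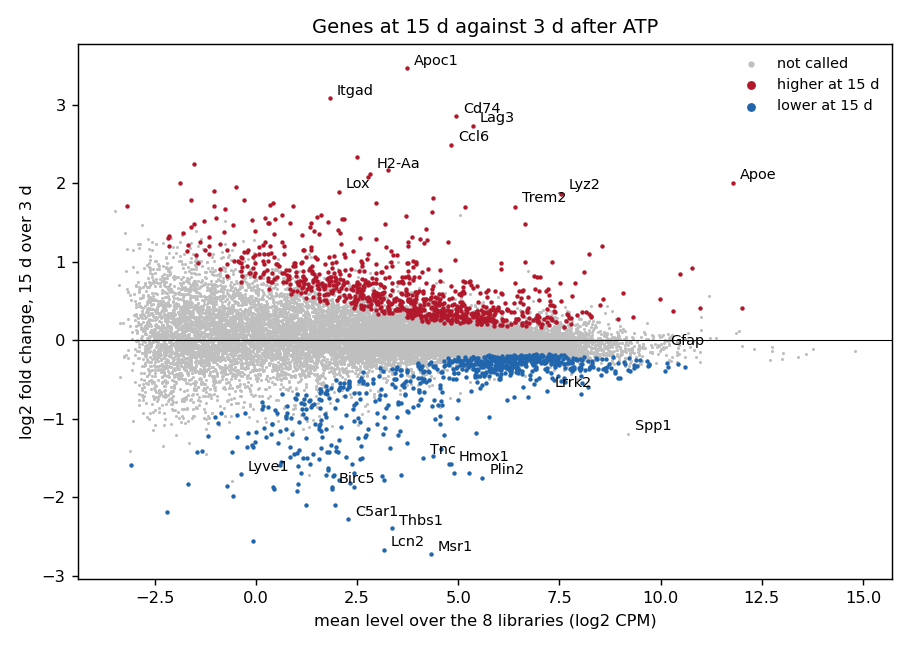
Each point is 1 of the 18646 genes tested, with its mean level over the 8 libraries (log2 CPM) on the x axis and its log2 fold change of 15 d over 3 d on the y axis. Red points passed the test and were higher at 15 d, blue points passed and were lower, and Apoc1, Itgad and Cd74 lie at the top while Msr1 and Lcn2 lie at the bottom.

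Genes of cell division fell together. All 22 of the 22 tested members of the mitosis list passed as lower at 15 d than at 3 d, with a median log2 fold change of -1.38. Birc5, which encodes survivin of the chromosomal passenger complex, stood at 1.81 and 1.73 CPM (GS) and 1.32 and 1.46 CPM (WT) at 15 d, against 4.55 and 8.0 CPM (GS) and 3.27 and 7.16 CPM (WT) at 3 d. Ccnb1, the cyclin B1 that drives entry into mitosis, stood at 2.34 and 2.20 CPM (GS) and 1.77 and 2.62 CPM (WT) at 15 d, against 5.87 and 10.4 CPM (GS) and 4.18 and 11.1 CPM (WT) at 3 d. Both genes were below every 3 d library in every 15 d library, and the lowest 3 d value of each was in WT 3 d rep 1. The log2 fold change was -1.86 ± 0.25 for Birc5 (edgeR adjusted p = 0.00401) and -1.82 ± 0.29 for Ccnb1 (edgeR adjusted p = 0.00695). Prc1, a crosslinker of spindle midzone microtubules (log2 fold change -1.78 ± 0.31, edgeR adjusted p = 0.00897), the checkpoint kinase gene Bub1 (-1.71 ± 0.28) and the ubiquitin-conjugating enzyme gene Ube2c (-1.71 ± 0.26) followed. The 10 largest changes each way were ranked among genes that passed, averaged 1 CPM or more and did not overlap between the times. The 10 largest falls so ranked included the spindle-associated genes Hmmr (-2.10 ± 0.29) and Ckap2 (-1.87 ± 0.30). They also included Cep55 of the abscission midbody (-2.10 ± 0.28) and Ercc6l, which acts on chromatin bridges at anaphase (-1.90 ± 0.32). Of genes for DNA replication, 9 of 23 fell and 0 rose, with a median of -0.63. Among them, Rrm2, the regulatory subunit of ribonucleotide reductase, averaged 4.01 ± 0.742 CPM at 15 d and 13.4 ± 5.28 CPM at 3 d (SD, n = 4 each; log2 fold change -1.73 ± 0.27). The helicase subunit gene Mcm6 averaged 4.27 ± 0.447 CPM at 15 d and 9.42 ± 2.81 CPM at 3 d (log2 fold change -1.13 ± 0.19). Division genes had not returned to the intact level, since 21 of 22 mitosis genes remained above intact striatum at 15 d, with a median log2 fold change of 1.64 against intact. The number of replication genes that fell was 4 (without GS 3 d rep 2 or GS 15 d rep 1), 5 (without WT 15 d rep 2 or GS 15 d rep 2) and 18 (without WT 3 d rep 1). The number of mitosis genes that fell was 16 to 22 with 1 library left out.

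Promoter sequences are shown for the 3 genes of the mitosis list with the largest falls, because genes of this phase are known to share 2 short elements. The CHR element (TTTGAA or TTCGAA) is bound by the MuvB core of the DREAM and MYB-FOXM1 complexes, and CCAAT is bound by NF-Y. The sequences are from RefSeq on GRCm38.p6, from 250 bases before the annotated start to 30 bases after it, written 5′ to 3′ on the gene's strand with any match to these elements on either strand in capitals. Birc5 lies at chr11:117848987-117849266 on the plus strand, Ccnb1 at chr13:100786457-100786736 on the minus strand and Prc1 at chr7:80294201-80294480 on the plus strand, where the first of 2 listed starts is used.
Birc5: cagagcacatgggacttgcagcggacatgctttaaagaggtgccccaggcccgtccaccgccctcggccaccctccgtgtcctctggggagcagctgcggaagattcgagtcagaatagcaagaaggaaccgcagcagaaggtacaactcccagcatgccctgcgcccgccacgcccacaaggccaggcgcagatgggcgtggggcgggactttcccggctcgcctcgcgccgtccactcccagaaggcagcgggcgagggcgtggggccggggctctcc
Ccnb1: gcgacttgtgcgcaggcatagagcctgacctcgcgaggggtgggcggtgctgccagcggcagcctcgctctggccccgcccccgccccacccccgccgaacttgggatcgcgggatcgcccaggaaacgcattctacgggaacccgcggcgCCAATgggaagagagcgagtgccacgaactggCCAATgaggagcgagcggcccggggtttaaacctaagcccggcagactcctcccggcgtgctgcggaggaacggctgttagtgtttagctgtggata
Prc1: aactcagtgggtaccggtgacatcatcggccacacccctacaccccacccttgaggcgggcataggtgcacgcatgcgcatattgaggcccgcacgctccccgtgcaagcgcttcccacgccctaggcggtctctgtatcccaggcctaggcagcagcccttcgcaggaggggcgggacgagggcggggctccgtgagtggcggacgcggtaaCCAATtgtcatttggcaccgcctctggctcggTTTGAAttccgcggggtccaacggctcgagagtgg
The Prc1 window holds a CHR and a CCAAT, with the CHR at bases 246 to 251 counted from the window's first base. Ccnb1 holds 2 CCAAT and no CHR, and Birc5 holds none of these letters in this window. Of the 22 mitosis genes 20 had a promoter entry, and in windows of 300 bases a CHR was present in 15 of them (75.0%), against 21.7% of 27025 genes with an entry. CCAAT was present in 17 of the 20 (85.0%), against 41.1% of those genes. A match describes the letters and is not a measured site.

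Phagocyte genes moved in both directions. The lipid carrier genes Apoe and Apoc1 and genes of the Trem2 pathway, by which microglia respond to lipids and debris, rose at 15 d. Apoe, the main lipid carrier of the brain, stood at 5531 and 7539 CPM (GS) and 3452 and 6162 CPM (WT) at 15 d, against 1552 and 1278 CPM (GS) and 1169.9 and 1581 CPM (WT) at 3 d. The 15 d values were all above the 3 d values (log2 fold change 2.01 ± 0.19, edgeR adjusted p = 8.5e-04), and the 3 d values lay close to intact striatum, 1336 ± 59.1 CPM (SD, n = 4). Apoc1, a small apolipoprotein that adjoins Apoe on chromosome 7 (Apoc1 at chr7:19689480-19692659, Apoe at chr7:19696244-19701310, GRCm38.p6), had the largest rise of the genes named here. It stood at 17.9 and 34.2 CPM (GS) and 12.9 and 32.2 CPM (WT) at 15 d, against 2.74 and 2.62 CPM (GS) and 1.59 and 1.96 CPM (WT) at 3 d. The 15 d level was 11.1-fold higher (log2 fold change 3.47 ± 0.30, edgeR adjusted p = 4.9e-04). Trem2, the lipid-sensing receptor, stood at 130.1 and 178 CPM (GS) and 70.9 and 138 CPM (WT) at 15 d, against 45.3 and 46.5 CPM (GS) and 21.3 and 45.5 CPM (WT) at 3 d, with no overlap (log2 fold change 1.70 ± 0.24, edgeR adjusted p = 0.00449). Its signalling adaptor Tyrobp rose likewise (log2 fold change 1.48 ± 0.22, edgeR adjusted p = 0.00555), as did Axl, a receptor for apoptotic cells (0.82 ± 0.14, edgeR adjusted p = 0.00765). Of the disease-associated microglia list 7 of 17 tested genes rose and 0 fell, with a median of 0.36. The list also names Cst7, Itgax, Clec7a and Gpnmb, which are not among the 19457 genes. Its summed level overlapped between the times, at 6678 to 15508 CPM at 15 d and 4179 to 7708 CPM at 3 d, with WT 15 d rep 1 below GS 3 d rep 2. Spp1 (osteopontin), a secreted phosphoprotein of activated microglia and macrophages, stood at 363 and 555 CPM (GS) and 122 and 366 CPM (WT) at 15 d, against 815 and 1411 CPM (GS) and 311 and 746 CPM (WT) at 3 d. It did not pass (log2 fold change -1.19 ± 0.35, edgeR adjusted p = 0.0596), but with 1 library left out it passed without WT 3 d rep 1 (log2 fold change -1.41, edgeR adjusted p = 0.0318) and without WT 15 d rep 2 (-1.59, edgeR adjusted p = 0.0366). The number of members that rose was 4 (without GS 15 d rep 2) with 1 library left out.

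Other genes that microglia or macrophages are known to express were among the 10 largest rises. Lag3, a receptor of the CD4 family, stood at 70.4 and 95.2 CPM (GS) and 45.0 and 74.7 CPM (WT) at 15 d, against 13.1 and 13.1 CPM (GS) and 6.31 and 10.9 CPM (WT) at 3 d. The lowest 15 d library was above the highest 3 d library by more than the range at 3 d (log2 fold change 2.73 ± 0.19, edgeR adjusted p = 2.3e-04). Itgad, the integrin alpha D subunit, averaged 6.36 ± 2.57 CPM at 15 d and 0.730 ± 0.174 CPM at 3 d (SD, n = 4 each; log2 fold change 3.08 ± 0.32, edgeR adjusted p = 0.00124). Its intact mean was 0.711 ± 0.128 CPM (SD, n = 4), near the 3 d level. The sialyltransferase gene St8sia6 rose (log2 fold change 2.17 ± 0.19, edgeR adjusted p = 4.9e-04). The chemokine genes Ccl6 (log2 fold change 2.49 ± 0.19), Ccl9 (1.32 ± 0.17) and Cxcl16 (1.01 ± 0.19) rose, and they were the 3 of 12 measured chemokine and cytokine genes that passed. Lysozyme, Lyz2, a product of macrophages and monocytes, stood at 286 and 469.6 CPM (GS) and 127 and 281 CPM (WT) at 15 d, against 80.2 and 139.5 CPM (GS) and 32.5 and 74.6 CPM (WT) at 3 d. WT 15 d rep 1 lay below GS 3 d rep 2, so the groups overlapped, and the difference passed (log2 fold change 1.86 ± 0.31, edgeR adjusted p = 0.00765). Of 13 homeostatic microglia genes 0 rose and 0 fell, with a median of 0.040, and the numbers higher and lower were 1 and 2 at an unadjusted p under 0.05, 0 and 2 by DESeq2 and 0 and 0 by limma-voom. The fractalkine receptor gene Cx3cr1 (132 to 237 CPM at 15 d and 97.2 to 199 CPM at 3 d) and the ADP receptor gene P2ry12 (70.4 to 99.4 CPM at 15 d and 61.7 to 138 CPM at 3 d) overlapped between the times. Without WT 3 d rep 1 P2ry12 passed as lower (log2 fold change -0.44, edgeR adjusted p = 0.00876). The number that rose was 2 (without WT 15 d rep 1) and the number that fell was 3 (without WT 3 d rep 1) with 1 library left out. Against intact striatum 12 of the 13 were higher at 15 d.

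**Figure D2:**
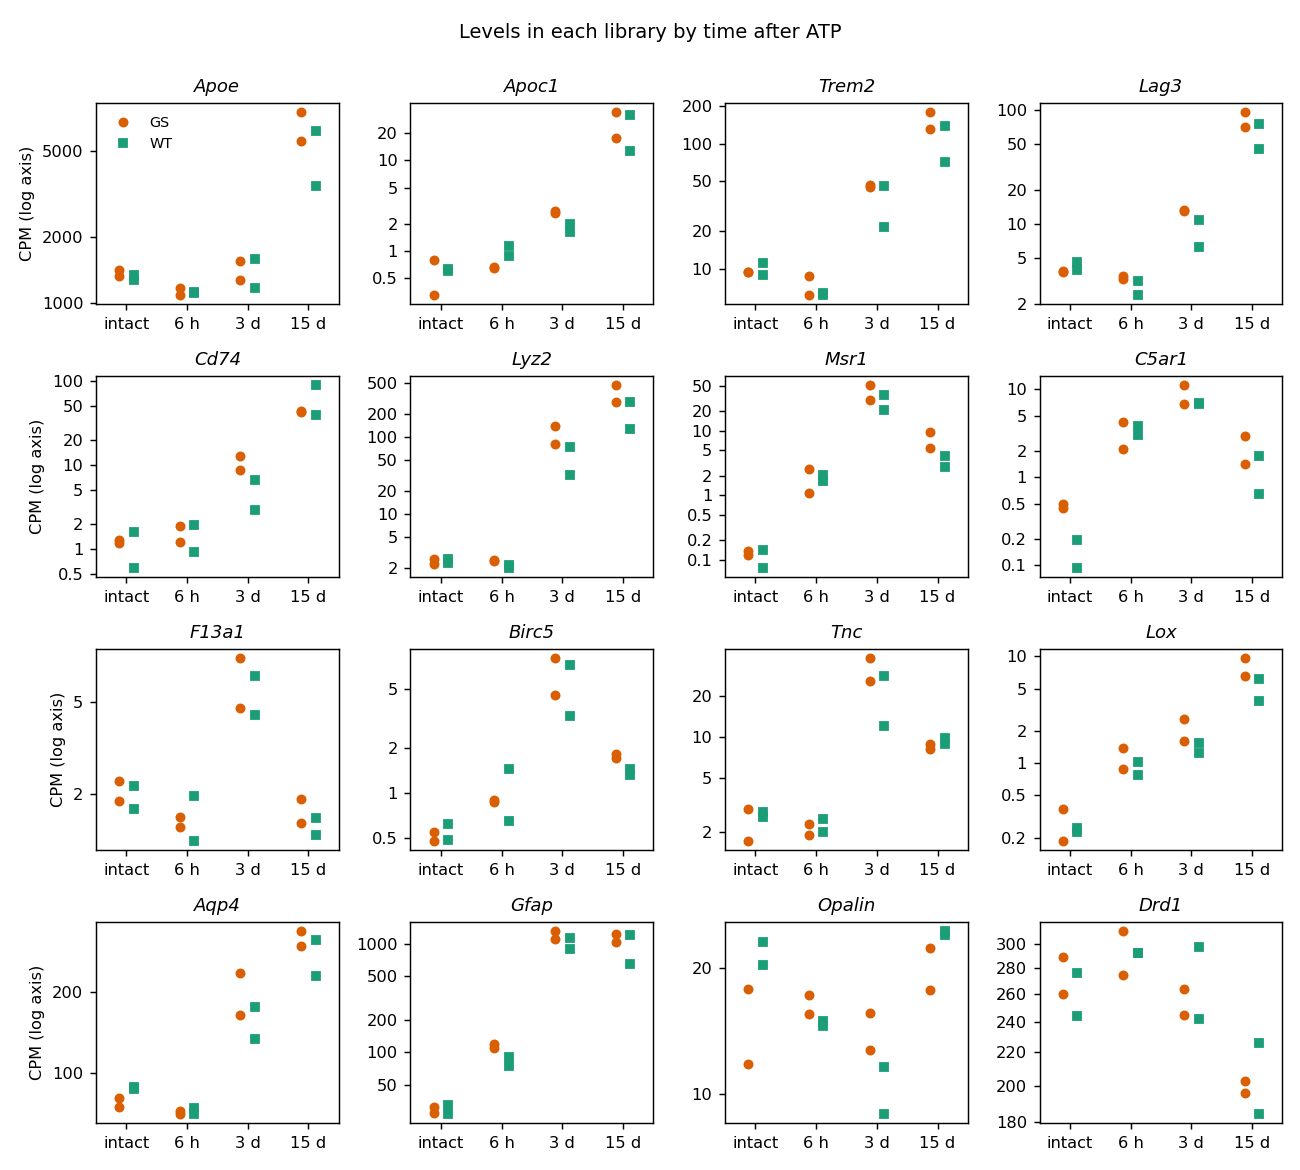
Levels (CPM, log axis) of 16 genes are shown in each of the 16 libraries by time after ATP, with GS as circles and WT as squares, 2 libraries each. Apoe, Apoc1, Lag3 and Lox were highest at 15 d in every library, Msr1, C5ar1, F13a1, Birc5 and Tnc were highest at 3 d, and Gfap overlapped between 3 d and 15 d.

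Other phagocyte genes were lower at 15 d. Of 10 tested scavenger and clearance receptor genes 5 fell, with Msr1 and Stab1 among them, and the list median was -0.23. The 2 that rose were Axl, above, and Colec12 (log2 fold change 0.59 ± 0.13). Msr1, the class A scavenger receptor, had the largest fall of the genes named here. It stood at 5.51 and 9.51 CPM (GS) and 2.76 and 4.09 CPM (WT) at 15 d, against 29.7 and 51.0 CPM (GS) and 21.4 and 36.1 CPM (WT) at 3 d. The 3 d level was 6.62 times the 15 d level (log2 fold change -2.73 ± 0.26, edgeR adjusted p = 8.5e-04), while in intact striatum Msr1 averaged 0.119 ± 0.0305 CPM (SD, n = 4), below every 15 d library. C5ar1, the receptor for the complement fragment C5a, stood at 1.43 and 2.94 CPM (GS) and 0.653 and 1.73 CPM (WT) at 15 d, against 6.82 and 11.1 CPM (GS) and 6.87 and 7.02 CPM (WT) at 3 d. No 15 d library reached a 3 d library (log2 fold change -2.28 ± 0.30, edgeR adjusted p = 0.00356). The chemokine receptor gene Ccr1 fell too (-1.87 ± 0.28, edgeR adjusted p = 0.00551). Thbs1, thrombospondin 1, a matrix protein that monocytes, platelets and astrocytes release, averaged 3.12 ± 1.07 CPM at 15 d and 17.4 ± 10.7 CPM at 3 d (SD, n = 4 each; log2 fold change -2.39 ± 0.34, edgeR adjusted p = 0.00466). Genes that mark macrophages of the meninges and of the spaces around vessels fell as well, 4 of 7 with 0 higher and a median of -0.86. F13a1, coagulation factor XIII A, stood at 1.90 and 1.5 CPM (GS) and 1.56 and 1.32 CPM (WT) at 15 d, against 4.72 and 7.80 CPM (GS) and 6.51 and 4.39 CPM (WT) at 3 d. The groups did not overlap (log2 fold change -1.89 ± 0.20, edgeR adjusted p = 0.00128), and the intact mean of 2.0 ± 0.260 CPM (SD, n = 4) lay above the 15 d values. Stab1, a scavenger receptor (log2 fold change -1.69 ± 0.20), and Lyve1, a hyaluronan receptor (-1.71 ± 0.24), belonged to the same list. The summed level of that list was 15.5 to 25.6 CPM at 15 d and 46.7 to 72.4 CPM at 3 d, without overlap, and 16.6 to 18.2 CPM in intact striatum. Most of this sum was Stab1 itself, at 9.11 to 18.3 CPM at 15 d and 31.5 to 56.5 CPM at 3 d. Of the 5 measured monocyte genes 4 fell (Thbs1, Ly6c2, Ms4a6c and Fn1) and Lyz2 rose. Thbs1 and Fn1 are matrix genes that are also in the fibroblast matrix list. Ly6c2 and Lyz2 were both set as defining monocyte markers, and they moved in opposite directions. The summed monocyte list was 164 to 565 CPM at 15 d and 117 to 341 CPM at 3 d, so the ranges overlapped. Most of this sum at 15 d was Lyz2, at 127 to 470 CPM, against 32.5 to 139.5 CPM at 3 d. Ly6c2 was low throughout, at 0.721 to 1.07 CPM at 15 d and 1.37 to 2.31 CPM at 3 d (log2 fold change -1.06 ± 0.20, edgeR adjusted p = 0.0118). It has a near-identical neighbour, Ly6c1, with which reads may be shared. The number of monocyte genes that fell was 2 (without GS 3 d rep 2 or GS 15 d rep 1) with 1 library left out.

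**Figure D3:**
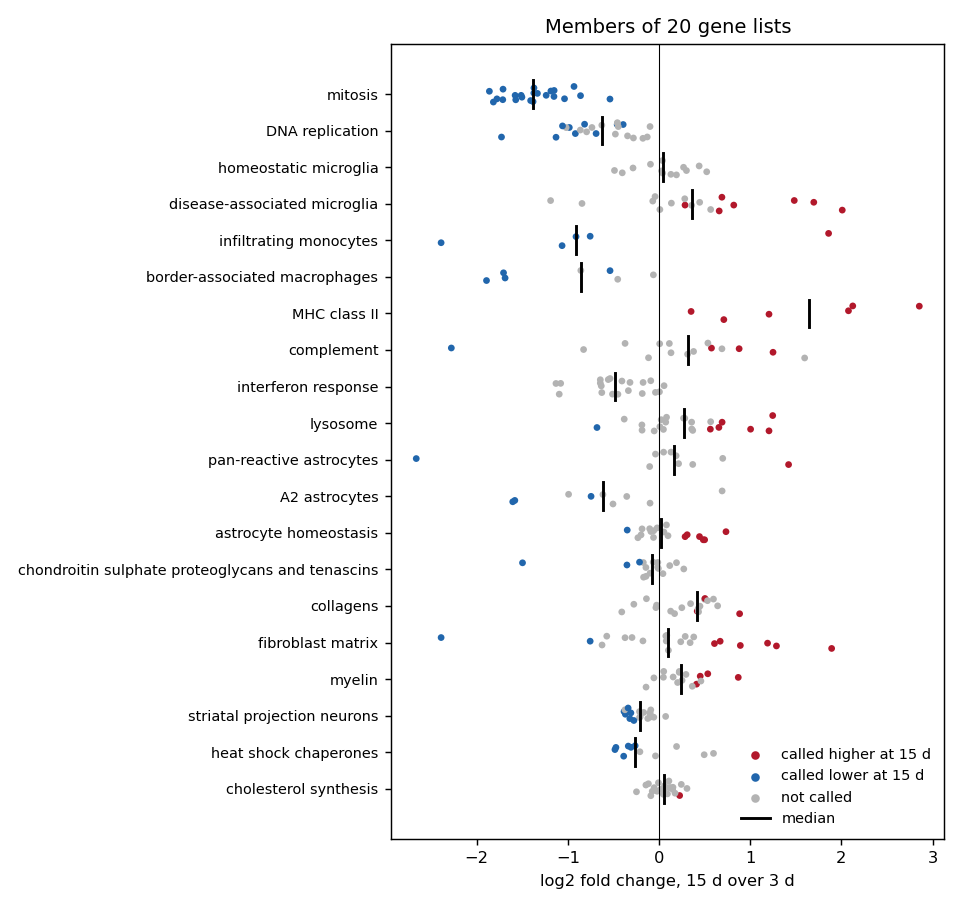
Each point is a tested member of 1 of 20 gene lists, placed by its log2 fold change of 15 d over 3 d, with vertical jitter and a black bar at the list's median. Red members passed as higher and blue as lower, so that the mitosis row is blue throughout, the MHC class II row is red throughout and the homeostatic microglia and interferon rows are grey.

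Genes of MHC class II antigen presentation rose at 15 d, and a part of the class I genes did. All 6 tested MHC class II genes passed as higher, with a median of 1.64. Cd74, the invariant chain that guards the class II groove, stood at 42.8 and 43.5 CPM (GS) and 88.9 and 39.5 CPM (WT) at 15 d, against 8.70 and 12.7 CPM (GS) and 2.91 and 6.56 CPM (WT) at 3 d. The 15 d libraries were all above the 3 d libraries (log2 fold change 2.86 ± 0.39, edgeR adjusted p = 0.00401), and WT 15 d rep 1 was the highest. H2-Aa averaged 11.5 ± 7.03 CPM at 15 d and 2.58 ± 1.23 CPM at 3 d (SD, n = 4 each; log2 fold change 2.13 ± 0.43, edgeR adjusted p = 0.0167). H2-Ab1 averaged 11 ± 4.00 CPM at 15 d and 2.71 ± 1.37 CPM at 3 d (SD, n = 4 each; log2 fold change 2.08 ± 0.36, edgeR adjusted p = 0.00844). These genes encode the alpha and beta chains of the class II molecule I-A. The other 3 that rose were Ctss, H2-DMa and H2-DMb1. Ctss, the cathepsin that trims the invariant chain, ranged over 304 to 735 CPM at 15 d and 170.5 to 284 CPM at 3 d (log2 fold change 1.21 ± 0.18, edgeR adjusted p = 0.00555). The same library, WT 15 d rep 1, was the highest of the 4 for Cd74, H2-Aa and H2-Ab1 and the lowest for Ctss, Apoe and Trem2. With that library left out the log2 fold changes stayed past the threshold, as they did with each other library left out. Of 12 class I genes 3 rose, namely H2-D1 (1.0 ± 0.15, edgeR adjusted p = 0.00567), H2-K1 and B2m (0.73 ± 0.17, edgeR adjusted p = 0.0263), and H2-D1 and H2-K1 are similar enough that reads may be shared. With 1 library left out, the class II count was 4 to 6 and the class I count was 1 (without GS 3 d rep 1, WT 15 d rep 2 or GS 15 d rep 2). B2m lost its edgeR call without GS 3 d rep 1 (0.0694), WT 15 d rep 2 (0.0849) or GS 15 d rep 2 (0.0886), with the adjusted p in brackets.

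The H2-Aa promoter is shown because the class II genes share a module whose Y box (CTGATTGG, which includes CCAAT on the other strand) is bound by NF-Y. This sequence and motif were picked after the values were seen. The window lies at chr17:34287794-34288073 on the minus strand (RefSeq, GRCm38.p6), and the Y box is in capitals.
H2-Aa: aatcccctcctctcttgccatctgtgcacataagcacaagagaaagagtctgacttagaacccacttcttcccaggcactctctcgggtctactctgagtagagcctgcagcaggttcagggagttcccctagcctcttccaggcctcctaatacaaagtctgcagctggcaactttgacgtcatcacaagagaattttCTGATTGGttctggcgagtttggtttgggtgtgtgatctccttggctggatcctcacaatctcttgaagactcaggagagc
The Y box lies at bases 200 to 207 of the window. Among class II genes with a promoter entry, 1 of 4 holds exactly these letters in its 300 bases (25%), against 4.7% of 27025 genes.

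Complement and interferon genes did not follow 1 pattern. Of 15 complement genes 3 rose and 1 fell. Serping1, the C1 inhibitor, stood at 17.3 and 27.2 CPM (GS) and 13.1 and 18.7 CPM (WT) at 15 d, against 5.42 and 8.0 CPM (GS) and 11.1 and 7.64 CPM (WT) at 3 d, with no overlap (log2 fold change 1.25 ± 0.24, edgeR adjusted p = 0.0138). C1qa, a chain of the initiating C1q molecule that microglia make, averaged 359 ± 110.3 CPM at 15 d and 192 ± 31.1 CPM at 3 d (SD, n = 4 each; log2 fold change 0.88 ± 0.18, edgeR adjusted p = 0.0178), and C4b was the other gene that rose. The gene that fell was C5ar1, above. C3, the central component, did not pass (log2 fold change 1.6 ± 0.86, edgeR adjusted p = 0.274). It stood at 38 and 66.5 CPM (GS) and 25.2 and 51.1 CPM (WT) at 15 d, against 4.37 and 5.70 CPM (GS) and 70.5 and 4.53 CPM (WT) at 3 d. WT 3 d rep 1 was above all 15 d libraries and the other 3 d libraries were below all of them. Without WT 3 d rep 1 C3 passed as higher at 15 d (log2 fold change 3.26, edgeR adjusted p = 4.4e-04). Of 20 interferon response genes 0 rose and 0 fell by edgeR, with a median of -0.48, and the numbers higher and lower were 0 and 7 at an unadjusted p under 0.05, 0 and 2 by DESeq2 and 0 and 1 by limma-voom. Isg15, an interferon-induced ubiquitin-like protein gene, stood at 0.845 to 2.81 CPM at 15 d and 2.38 to 3.54 CPM at 3 d (log2 fold change -1.13 ± 0.32, edgeR adjusted p = 0.0526), and it passed as lower without WT 3 d rep 1 (-1.35, edgeR adjusted p = 0.0355) or WT 15 d rep 2 (-1.60, edgeR adjusted p = 0.0086). Against intact striatum 19 of 20 were higher at 15 d. The number of interferon genes that fell was 1 (without WT 15 d rep 2) and 3 (without WT 3 d rep 1). The number of NF-kappaB genes that rose was 1 (without WT 3 d rep 1 or WT 15 d rep 1) with 1 library left out. The number of complement genes that rose was 1 (without GS 3 d rep 1, GS 3 d rep 2, WT 15 d rep 2 or GS 15 d rep 2) and 6 (without WT 15 d rep 1). C1qa lost its edgeR call without GS 3 d rep 1 (0.0572), GS 3 d rep 2 (0.0553), WT 15 d rep 2 (0.0711) or GS 15 d rep 2 (0.055), with the adjusted p in brackets. Of 11 NF-kappaB pathway genes 0 rose and 0 fell by edgeR, and the numbers higher and lower were 1 and 1 at an unadjusted p under 0.05, 0 and 0 by DESeq2 and 0 and 0 by limma-voom. Of 11 genes of gp130 and Stat3 signalling 3 fell, Clcf1, Socs3 and Pim1. Clcf1, a cytokine acting through gp130, fell (log2 fold change -1.58 ± 0.26, edgeR adjusted p = 0.00729). The number of these that fell was 1 (without GS 3 d rep 2 or GS 15 d rep 1) with 1 library left out.

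Lipid and lysosomal genes passed in both directions. Plin2, which coats intracellular lipid droplets, stood at 22.9 and 31.4 CPM (GS) and 12.8 and 21.6 CPM (WT) at 15 d, against 68.9 and 107 CPM (GS) and 35.5 and 85.2 CPM (WT) at 3 d. Every 15 d value was below every 3 d value (log2 fold change -1.75 ± 0.26, edgeR adjusted p = 0.00555), and the intact mean was 5.26 ± 0.930 CPM (SD, n = 4). Npc2, which hands cholesterol out of lysosomes, was higher, at 114 to 194 CPM at 15 d and 66.2 to 107 CPM at 3 d (log2 fold change 0.81 ± 0.13, edgeR adjusted p = 0.00718). With Apoe, these were the 3 of 12 genes of cholesterol efflux and storage that passed. Of 22 cholesterol synthesis genes 1 rose, Lss, and 0 fell, and that 1 call was lost without any one of the 8 libraries. At 15 d 14 of the 22 were below intact striatum. Of 22 lysosomal genes 6 rose and 1 fell, with a median of 0.28. The cathepsin gene Ctsh averaged 25 ± 7.57 CPM at 15 d and 10.5 ± 3.11 CPM at 3 d (SD, n = 4 each; log2 fold change 1.25 ± 0.19, edgeR adjusted p = 0.00575). Lgmn, the asparaginyl endopeptidase legumain, averaged 202 ± 43.4 CPM at 15 d and 324 ± 74.2 CPM at 3 d (log2 fold change -0.68 ± 0.16, edgeR adjusted p = 0.0285). The number of lysosomal genes that rose was 2 (without WT 15 d rep 2) and 3 (without WT 3 d rep 1, GS 3 d rep 1, GS 3 d rep 2 or GS 15 d rep 2) with 1 library left out. Lgmn lost its edgeR call without WT 3 d rep 2 (0.0539), GS 3 d rep 2 (0.0799), WT 15 d rep 1 (0.0512) or GS 15 d rep 1 (0.0833), with the adjusted p in brackets. Summed lysosomal genes overlapped between times, at 5878 to 11774 CPM at 15 d and 5401 to 8686 CPM at 3 d, and summed homeostatic microglia genes did too, at 1037 to 2022 CPM at 15 d and 889.9 to 1678 CPM at 3 d. The part of microglial content in these differences was not tested.

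**Figure D4:**
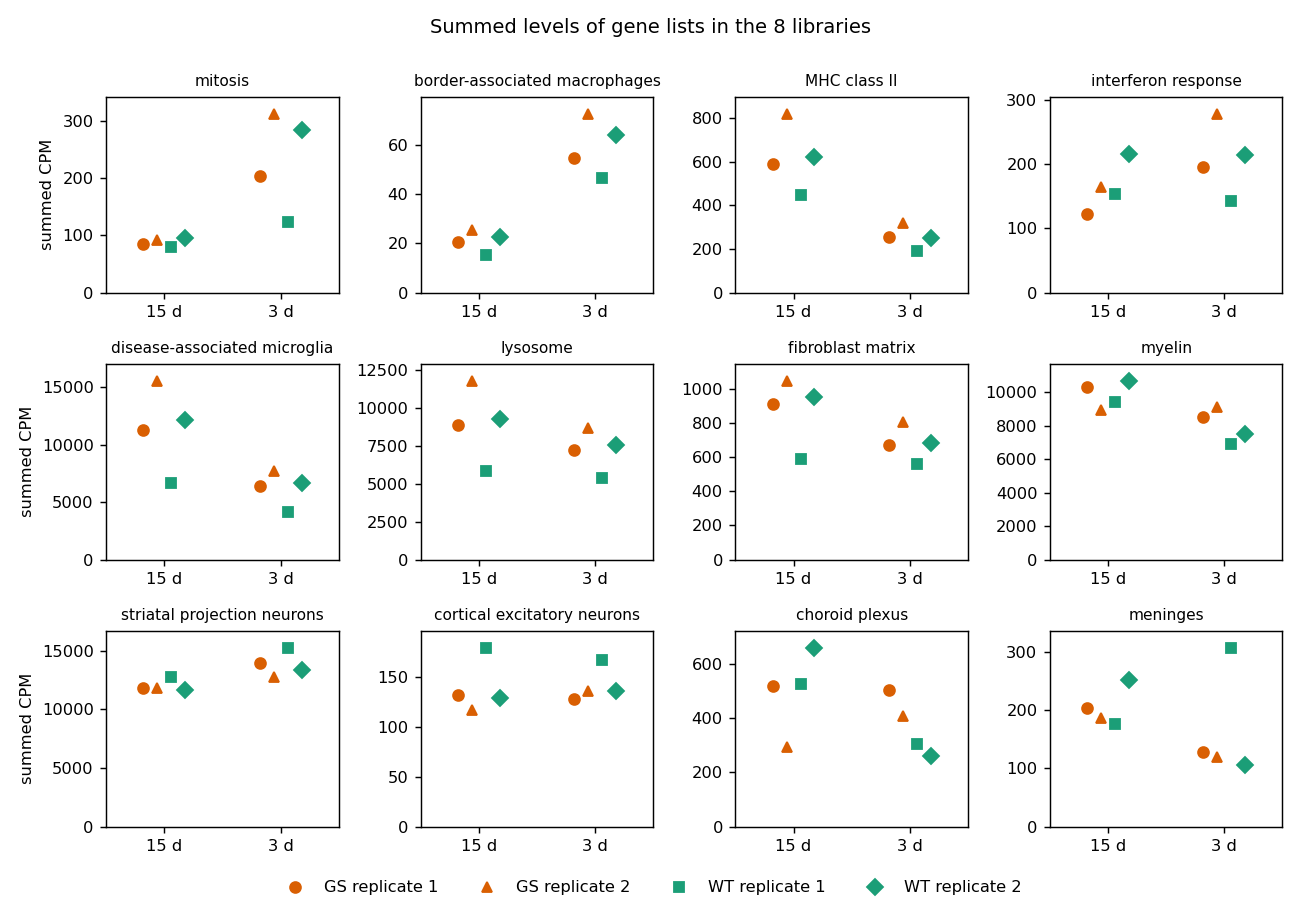
Summed levels (CPM, from 0) of 12 gene lists are shown in the 8 libraries, with 15 d left of 3 d, GS in orange and WT in green. Mitosis and border-associated macrophage sums were lower at 15 d and MHC class II sums higher, without overlap, while sums for cortical neurons, choroid plexus and meninges overlapped. Most of each MHC class II sum was Ctss, which is also in the lysosome list, and most of each border-associated macrophage sum was Stab1. The cortical sums include Lamp5, which fell, while the median log2 fold change of the cortical list was 0.65.

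Most astrocyte genes tested did not pass, in the lists of the reactive state and in that of homeostasis alike, and those that passed are given by list. Gfap, the intermediate filament gene by which reactive astrocytes are recognised, stood at 1030.3 and 1229 CPM (GS) and 656 and 1199 CPM (WT) at 15 d, against 1102 and 1303 CPM (GS) and 899 and 1122 CPM (WT) at 3 d. The groups overlapped (log2 fold change -0.10 ± 0.16, edgeR adjusted p = 0.739), and both lay far above intact striatum (29.7 ± 2.71 CPM, SD, n = 4; 15 d over intact log2 fold change 5.11 ± 0.19, edgeR adjusted p = 1.0e-07). Of the 10 pan-reactive genes 1 rose and 1 fell. S1pr3, a sphingosine 1-phosphate receptor, rose, with 27.0 ± 8.29 CPM at 15 d and 10.1 ± 1.97 CPM at 3 d (SD, n = 4 each; log2 fold change 1.42 ± 0.20, edgeR adjusted p = 0.00449). Lcn2, the iron-siderophore carrier lipocalin 2, stood at 3.80 and 3.44 CPM (GS) and 1.09 and 1.12 CPM (WT) at 15 d, against 5.68 and 11.6 CPM (GS) and 37.3 and 7.36 CPM (WT) at 3 d. It fell (log2 fold change -2.66 ± 0.67, edgeR adjusted p = 0.0372) and was spread widely at 3 d. WT 3 d rep 1 was more than 3 times any other 3 d library for Lcn2. Lcn2 lost its edgeR call without GS 3 d rep 2 (0.0796), WT 15 d rep 1 (0.0851), WT 15 d rep 2 (0.132), GS 15 d rep 1 (0.0546) or GS 15 d rep 2 (0.0701), with the adjusted p in brackets. Of 9 genes of the set called A2, described after ischaemia, 3 fell, namely Clcf1, the prostaglandin synthase gene Ptgs2 (-1.61 ± 0.29, edgeR adjusted p = 0.00977) and S100a10 (-0.75 ± 0.13, edgeR adjusted p = 0.00897), with a median of -0.62. Of 11 genes of the set called A1, described after endotoxin, 3 rose (Serping1, H2-D1 and Ggta1) and 1 fell (Fkbp5), and H2-D1 and Serping1 are in other lists above. Of 18 homeostatic genes 6 rose and 1 fell, with a median of 0.016. Aqp4, the water channel of astrocyte endfeet, stood at 297 and 337 CPM (GS) and 230.0 and 312 CPM (WT) at 15 d, against 165 and 236 CPM (GS) and 134 and 177 CPM (WT) at 3 d. WT 15 d rep 1 lay below GS 3 d rep 2 by a small margin (log2 fold change 0.73 ± 0.13, edgeR adjusted p = 0.0104), and the intact mean was 82.9 ± 6.35 CPM (SD, n = 4). Mlc1, a membrane protein of the same endfeet (log2 fold change 0.50 ± 0.084), the transcription factor gene Sox9 (0.49 ± 0.081) and the calcium-binding protein gene S100b (0.44 ± 0.065) rose without overlap. The number of pan-reactive genes that rose was 3 (without WT 15 d rep 1) with 1 library left out. The call of the single A1 gene that fell was lost in part of these fits, its number being 0 (without WT 15 d rep 1, WT 15 d rep 2, GS 15 d rep 1 or GS 15 d rep 2).

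Some matrix genes of the scar fell at 15 d and others rose. Tnc, tenascin C, a glycoprotein of early wounds, stood at 8.11 and 8.96 CPM (GS) and 8.86 and 9.87 CPM (WT) at 15 d, against 25.7 and 38 CPM (GS) and 12 and 28.1 CPM (WT) at 3 d. The 15 d libraries lay close together and below all 3 d libraries (log2 fold change -1.5 ± 0.25, edgeR adjusted p = 0.00826), and above the intact mean of 2.52 ± 0.553 CPM (SD, n = 4). Of 16 proteoglycan and tenascin genes 0 rose and 3 fell, the others being Ptprz1 and Chst11. Some genes of collagen fibres and their crosslinking rose. Lox, lysyl oxidase, which crosslinks collagen and elastin, stood at 6.50 and 9.60 CPM (GS) and 3.83 and 6.20 CPM (WT) at 15 d, against 1.62 and 2.62 CPM (GS) and 1.54 and 1.25 CPM (WT) at 3 d. All 15 d values were above all 3 d values (log2 fold change 1.89 ± 0.22, edgeR adjusted p = 0.00171), against 0.260 ± 0.0817 CPM in intact striatum (SD, n = 4). Fmod, fibromodulin, a proteoglycan that binds collagen fibrils, was among the 10 largest rises, with 9.47 ± 2.19 CPM at 15 d and 1.86 ± 0.221 CPM at 3 d (SD, n = 4 each; log2 fold change 2.34 ± 0.19, edgeR adjusted p = 3.3e-04). Postn, periostin, a matricellular protein of fibroblasts, stood at 14.2 and 15.9 CPM (GS) and 8.87 and 12.9 CPM (WT) at 15 d, against 5.76 and 5.79 CPM (GS) and 5.59 and 5.37 CPM (WT) at 3 d. The 15 d values were all higher (log2 fold change 1.19 ± 0.14, edgeR adjusted p = 0.00171), and the 3 d values lay within a narrow range below the intact mean of 6.73 ± 1.35 CPM (SD, n = 4). Of 21 fibroblast matrix genes 6 rose, with Mgp, Sparc, Thbs2 and Eln beside Lox and Postn, and 2 fell, Fn1 and Thbs1. Fn1 and Thbs1 are also in the monocyte list above. Of 19 collagen genes 3 rose and 0 fell, led by the basement membrane collagen gene Col15a1 (0.88 ± 0.14, edgeR adjusted p = 0.00729), with Col6a1 and Col6a2. Col1a1 of fibrillar collagen, a defining fibroblast gene, did not pass, at 5.56 to 10.2 CPM at 15 d and 4.64 to 8.77 CPM at 3 d (log2 fold change 0.35 ± 0.16, edgeR adjusted p = 0.217). The number of fibroblast matrix genes that rose was 2 (without WT 3 d rep 1, GS 3 d rep 1, GS 3 d rep 2, WT 15 d rep 2, GS 15 d rep 1 or GS 15 d rep 2) with 1 library left out. The number of fibroblast matrix genes that fell was 1 (without WT 3 d rep 2, GS 3 d rep 2, WT 15 d rep 1, GS 15 d rep 1 or GS 15 d rep 2). The number of collagen genes that rose was 1 (without WT 3 d rep 1, WT 15 d rep 2, GS 15 d rep 1 or GS 15 d rep 2) and 5 (without WT 3 d rep 2). The number of proteoglycan genes that fell was 1 (without GS 15 d rep 1 or GS 15 d rep 2).

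Of 16 genes of matrix proteases and their inhibitors 4 fell and 1 rose, and of 14 genes of TGF-beta signalling 2 fell and 3 rose. Adam8, a membrane protease of leukocytes and microglia, stood at 5.18 and 7.73 CPM (GS) and 4.15 and 5.31 CPM (WT) at 15 d, against 18.1 and 23.6 CPM (GS) and 10.7 and 21 CPM (WT) at 3 d, without overlap (log2 fold change -1.71 ± 0.21, edgeR adjusted p = 0.00221). Adamts1 and Adamts9 fell as well, and Timp2, a metalloproteinase inhibitor, rose (0.36 ± 0.064, edgeR adjusted p = 0.00931). Inhba, the activin A subunit of the TGF-beta family, averaged 21.1 ± 3.47 CPM at 15 d and 41.6 ± 2.67 CPM at 3 d, against 24 ± 1.08 CPM in intact striatum (SD, n = 4 each; log2 fold change -0.98 ± 0.11, edgeR adjusted p = 0.00137). Tgfbr2, the TGF-beta type II receptor, rose (log2 fold change 0.64 ± 0.16, edgeR adjusted p = 0.0385). The number of TGF-beta genes that rose was 0 (without GS 3 d rep 1, WT 15 d rep 2, GS 15 d rep 1 or GS 15 d rep 2) and 1 (without WT 3 d rep 1 or GS 3 d rep 2). The number that fell was 1 (without GS 15 d rep 1 or GS 15 d rep 2) with 1 library left out. The number of protease list genes that rose was 2 (without WT 3 d rep 2) and 4 (without WT 15 d rep 1). Of the same list the number that fell was 2 (without WT 3 d rep 1, GS 3 d rep 2, WT 15 d rep 1, GS 15 d rep 1 or GS 15 d rep 2). Tgfbr2 lost its edgeR call without WT 3 d rep 1 (0.0857), GS 3 d rep 1 (0.093), WT 15 d rep 2 (0.127), GS 15 d rep 1 (0.055) or GS 15 d rep 2 (0.125), with the adjusted p in brackets.

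Vessel genes were read in lists of endothelium, mural cells and angiogenic sprouting, against the 8.28% of all genes that passed. Of 16 endothelial genes 0 rose and 2 fell, Pecam1 and Ly6c1, with a median of -0.11. Vegfa, the main vessel growth factor, stood at 81.4 and 77.5 CPM (GS) and 77.1 and 72.0 CPM (WT) at 15 d, against 104 and 89.2 CPM (GS) and 99.4 and 97.4 CPM (WT) at 3 d. Every 15 d value was lower (log2 fold change -0.34 ± 0.062, edgeR adjusted p = 0.0111), with 111 ± 9.48 CPM in intact striatum (SD, n = 4). Of 9 angiogenic genes 3 fell and 1 rose, and those that passed beside Vegfa were Apln and its receptor Aplnr, which fell, and Cxcr4, which rose. Of 12 mural cell genes 1 rose, Mcam, an adhesion molecule, with 20.6 ± 0.818 CPM at 15 d and 14.4 ± 1.6 CPM at 3 d against 21.8 ± 2.36 CPM in intact striatum (SD, n = 4 each; log2 fold change 0.52 ± 0.087, edgeR adjusted p = 0.0075). The number of endothelial genes that rose was 1 (without GS 3 d rep 2). Of these genes the number that fell was 1 (without GS 3 d rep 2, GS 15 d rep 1 or GS 15 d rep 2) with 1 library left out. The number of angiogenic genes that fell was 1 (without WT 3 d rep 2, GS 3 d rep 1, GS 3 d rep 2, WT 15 d rep 2, GS 15 d rep 1 or GS 15 d rep 2). The number that rose was 0 (without GS 3 d rep 1, GS 3 d rep 2, WT 15 d rep 2 or GS 15 d rep 2).

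Oligodendrocyte genes that passed were higher at 15 d. Enpp6, a marker of newly forming oligodendrocytes, stood at 20.3 and 23 CPM (GS) and 18.6 and 20.9 CPM (WT) at 15 d, against 13.3 and 14.9 CPM (GS) and 8.64 and 11 CPM (WT) at 3 d. The groups did not overlap (log2 fold change 0.81 ± 0.11, edgeR adjusted p = 0.00401), and 15 d was also above the intact mean of 10.5 ± 1.20 CPM (SD, n = 4). Opalin, a membrane protein of mature myelinating cells, stood at 22.3 and 17.7 CPM (GS) and 24.5 and 24 CPM (WT) at 15 d, against 12.8 and 15.6 CPM (GS) and 8.96 and 11.6 CPM (WT) at 3 d. It was higher than at 3 d (log2 fold change 0.87 ± 0.16, edgeR adjusted p = 0.00983) and did not differ past the threshold from intact striatum (log2 fold change 0.30 ± 0.12, edgeR adjusted p = 0.0666). Neu4, a sialidase of precursors, rose (log2 fold change 0.47 ± 0.082, edgeR adjusted p = 0.00919). In all 3 of 12 precursor and early genes rose (Enpp6, Neu4 and Sox10) and 4 of 16 myelin genes rose (Opalin, Mbp, Cnp and Aspa), with 0 lower and a median of 0.24 for myelin. Mbp, myelin basic protein, averaged 4723 ± 416 CPM at 15 d and 3575 ± 422 CPM at 3 d (SD, n = 4 each; log2 fold change 0.41 ± 0.095, edgeR adjusted p = 0.028). The number of myelin genes that rose was 1 (without GS 3 d rep 1, WT 15 d rep 2 or GS 15 d rep 1) and 2 (without WT 3 d rep 1 or WT 3 d rep 2) with 1 library left out. Mbp lost its edgeR call without WT 3 d rep 1 (0.052), WT 3 d rep 2 (0.0521), GS 3 d rep 1 (0.0506), WT 15 d rep 2 (0.0804) or GS 15 d rep 1 (0.082), with the adjusted p in brackets.

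Neuronal genes were mostly below intact striatum at 15 d, and some fell between the times. Cortical excitatory neuron genes also differed, summing to 117 to 179 CPM at 15 d and 171 to 337 CPM in intact striatum. Slc17a7 ranged over 4.47 to 35.0 CPM at 15 d and 15.6 to 135.7 CPM in intact striatum. The part of cortical tissue in the neuronal differences from intact striatum was not tested. Drd1, the dopamine receptor of the direct pathway, stood at 196 and 203 CPM (GS) and 226 and 185 CPM (WT) at 15 d, against 264 and 245 CPM (GS) and 297 and 242 CPM (WT) at 3 d. Every 15 d value was below every 3 d value (log2 fold change -0.37 ± 0.080, edgeR adjusted p = 0.0225), and the intact mean was 267 ± 19.5 CPM (SD, n = 4). Penk, the enkephalin precursor of the indirect pathway, averaged 964 ± 31.5 CPM at 15 d and 1263 ± 144 CPM at 3 d (SD, n = 4 each; log2 fold change -0.38 ± 0.082, edgeR adjusted p = 0.0213). Gnal, a G protein subunit gene in the projection neuron list, averaged 733 ± 36.4 CPM at 15 d and 917 ± 43.9 CPM at 3 d (log2 fold change -0.32 ± 0.062, edgeR adjusted p = 0.0141). Of 18 projection neuron genes 6 fell and 0 rose, with a median of -0.21, and 17 of 18 were below intact striatum. The number that fell was 0 (without WT 15 d rep 2), 1 (without GS 3 d rep 1, GS 15 d rep 1 or GS 15 d rep 2) and 3 (without WT 3 d rep 1) with 1 library left out. Drd1 lost its edgeR call without GS 3 d rep 1 (0.0619), WT 15 d rep 2 (0.0702), GS 15 d rep 1 (0.0672) or GS 15 d rep 2 (0.0601), Penk lost its edgeR call without GS 3 d rep 1 (0.0628), WT 15 d rep 2 (0.0752) or GS 15 d rep 1 (0.0631) and Gnal lost its edgeR call without WT 15 d rep 2 (0.0545) or GS 15 d rep 2 (0.0587), with the adjusted p in brackets. Of 16 neurofilament and synaptic vesicle genes 0 fell and 0 rose between the times by edgeR, and the numbers higher and lower were 0 and 3 at an unadjusted p under 0.05, 0 and 2 by DESeq2 and 0 and 1 by limma-voom. All 16 were below intact striatum. Nefm, the medium neurofilament chain, is an example, with 124 ± 2.53 CPM at 15 d and 137 ± 13.5 CPM at 3 d, and 222 ± 43.0 CPM in intact striatum (SD, n = 4 each; 15 d over 3 d log2 fold change -0.14 ± 0.070, edgeR adjusted p = 0.26). Of 12 interneuron genes 0 rose and 0 fell by edgeR, and the numbers higher and lower were 1 and 4 at an unadjusted p under 0.05, 0 and 2 by DESeq2 and 0 and 0 by limma-voom. The number of interneuron genes that fell was 1 (without WT 15 d rep 1) and 2 (without WT 3 d rep 2). The number of neurofilament and vesicle genes that fell was 1 (without WT 3 d rep 2 or WT 15 d rep 1) with 1 library left out. Jun, a transcription factor of injured neurons and glia, stood at 80.9 and 78.8 CPM (GS) and 58.4 and 73.9 CPM (WT) at 15 d, against 50 and 44.2 CPM (GS) and 38.6 and 55.4 CPM (WT) at 3 d. All 15 d libraries were above all 3 d libraries (log2 fold change 0.63 ± 0.12, edgeR adjusted p = 0.0117).

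Stress genes that passed were mostly lower at 15 d. Hmox1, haem oxygenase, which breaks down haem and is made by macrophages after bleeding, stood at 14.9 and 19 CPM (GS) and 9.81 and 13.8 CPM (WT) at 15 d, against 34.2 and 50.3 CPM (GS) and 45.5 and 39.7 CPM (WT) at 3 d. No library of 15 d reached 3 d (log2 fold change -1.58 ± 0.16, edgeR adjusted p = 0.00128), and the intact mean was 4.18 ± 0.552 CPM (SD, n = 4). Of 11 Nrf2 target genes 3 fell, Hmox1, Txnrd1 and Srxn1 (sulfiredoxin, -0.34 ± 0.067, edgeR adjusted p = 0.0149), and 0 rose. Cdkn1a, the cell cycle inhibitor p21 and a p53 target, stood at 15.0 and 15.2 CPM (GS) and 11.3 and 16 CPM (WT) at 15 d, against 24.6 and 28.4 CPM (GS) and 36.6 and 25.9 CPM (WT) at 3 d. It fell (log2 fold change -1.0 ± 0.14, edgeR adjusted p = 0.00449), and the 15 d values lay around the intact mean of 12.4 ± 1.15 CPM (SD, n = 4). Bbc3, the p53 target PUMA, moved the other way, at 5.44 to 6.67 CPM at 15 d and 3.04 to 4.00 CPM at 3 d (log2 fold change 0.74 ± 0.13, edgeR adjusted p = 0.00939). Its intact mean was 6.44 ± 0.830 CPM (SD, n = 4), above the 3 d values. Bbc3 at 15 d did not differ past the threshold from intact striatum (log2 fold change -0.099 ± 0.12, edgeR adjusted p = 0.532). In the p53 list 4 of 12 fell and 1 rose. Of 11 chaperone genes 6 fell and 0 rose, with Hsp90b1 of the endoplasmic reticulum (-0.48 ± 0.072, edgeR adjusted p = 0.00555) and Hspd1 of mitochondria (-0.31 ± 0.057, edgeR adjusted p = 0.0111) among them and a median of -0.26. Of 12 integrated stress response genes 0 rose and 0 fell by edgeR, and the numbers higher and lower were 1 and 1 at an unadjusted p under 0.05, 0 and 1 by DESeq2 and 0 and 0 by limma-voom. Of 16 glycolysis genes 4 fell, with Ldha, lactate dehydrogenase A, at 139.6 ± 3.58 CPM at 15 d and 172 ± 13.9 CPM at 3 d (SD, n = 4 each; log2 fold change -0.30 ± 0.059, edgeR adjusted p = 0.0151). The number of p53 targets that fell was 1 (without WT 3 d rep 2, GS 3 d rep 2, WT 15 d rep 2, GS 15 d rep 1 or GS 15 d rep 2) and 2 (without WT 3 d rep 1, GS 3 d rep 1 or WT 15 d rep 1) with 1 library left out. The number of chaperone genes that fell was 2 (without WT 15 d rep 2), and the number that rose was 2 (without WT 15 d rep 1). The number of glycolysis genes that fell was 0 (without GS 15 d rep 1) and 1 (without WT 15 d rep 2). Ldha lost its edgeR call without WT 15 d rep 2 (0.0577) or GS 15 d rep 1 (0.0526), with the adjusted p in brackets.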

How the data were processed

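RNA was purified with RNeasy and made into TruSeq libraries, per the labels' protocols. The authors deposited raw read counts per gene, per the file headers. The submitters' processing notes name FastQC 0.11.7 and mm10. Aligner, counter and strand handling were not given in the sources used here, so genes with near-identical copies or antisense partners are uncertain. The columns named NT were taken as WT by elimination. Positions and promoters are from RefSeq GRCm38.p6, matched by Gene ID for 19410 of 19457 genes.

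The deposited counts were fitted with edgeR 4.0.16 in R 4.3.3. The filterByExpr step by group kept 18646 genes and removed 811. TMM scaling was followed by a quasi-likelihood fit of genotype and time to the 8 libraries (5 residual degrees of freedom, biological coefficient of variation 11.4%). The 15 d libraries were compared with the 4 intact libraries by the same model. Values written a ± b after a log2 fold change are standard errors derived from the F statistic. Alternatives included DESeq2 1.42.0 and limma-voom (limma 3.58.1).

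The 50 gene lists (685 genes, 606 in the table), the members and the tests were chosen with earlier results of these data known. Genes named were Lrrk2, the 10 largest changes each way (passed, mean level 1 CPM or more, times not overlapping), and per list up to 5 passing members by size of change, or its first 2 measured members if fewer passed. Not all of these are described. Spp1, Cx3cr1, P2ry12, C3, Isg15, Gfap, Col1a1, Nefm and Slc17a7 were given as levels, in part after their values were seen. Replicate libraries differed by more than sampling noise (chi-square over its degrees of freedom 9.44 to 31.7). None was counted as a repeat of another.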

Additional observations from a re-analysis of the deposited data

Results flagged for a closer look

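Each level printed for a gene or summed list was checked for a library far from the other 3 of its time, with both genotypes of a time in 1 group. Of 276 such groups of 4 libraries, 17 had a gap to the nearest library, as a share of the whole range, above Dixon's 95% critical value (6.16%), and chance alone gives about 1 in 20. No difference between genotypes in the change between times passed the test by edgeR, so none is listed.

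At 15 d, WT 15 d rep 1 was far above the other libraries for 3 MHC class II genes, with Cd74 at 88.9 CPM against 39.5 to 43.5 CPM, H2-Aa at 22 CPM against 6.83 to 8.89 CPM, and H2-Ab1 at 16.9 CPM against 8.52 to 9.71 CPM. The same library was apart for Mcm6 (3.60 CPM against 4.47 to 4.52 CPM), for Clcf1 (0.603 CPM against 0.792 to 0.83 CPM), for summed oligodendrocyte precursor genes (871 CPM against 1006 to 1013 CPM) and for summed striatal projection neuron genes (12781 CPM against 11657 to 11821 CPM). WT 15 d rep 2 was apart for Isg15 (2.81 CPM against 0.845 to 1.08 CPM) and Srxn1 (71.9 CPM against 67.7 to 68.0 CPM).

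At 3 d, WT 3 d rep 1 was apart for C3 (70.5 CPM against 4.37 to 5.70 CPM), Trem2 (21.3 CPM against 45.3 to 46.5 CPM), Tyrobp (34.1 CPM against 57.1 to 58.7 CPM), Mcam (12 CPM against 15.0 to 15.6 CPM), summed meningeal genes (306 CPM against 106 to 128 CPM) and summed interneuron genes (516 CPM against 435 to 440.2 CPM). GS 3 d rep 2 was apart for C5ar1 (11.1 CPM against 6.82 to 7.02 CPM) and Col1a1 (8.77 CPM against 4.64 to 5.25 CPM). With both WT replicate 1 libraries left out, an alternative chosen after seeing the data, 1712 genes were called between the times and all 79 called genes named in the account kept their direction and their call.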

How the results depend on the processing

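The 1543 calls between 15 d and 3 d (841 higher and 702 lower) became 2515 by DESeq2 (1317 and 1198), 2601 in a fit of all 16 libraries (1271 and 1330), 2904 with a cortical marker covariate (1516 and 1388), 38 at a 1.5-fold threshold (24 and 14), 5 in WT alone (2 and 3) and 454 in GS alone (254 and 200). RLE size factors gave 1547, limma-voom 1478, no filter 1305, a stricter filter 1446 and a model without genotype 1466. With each library left out they ran from 528 to 1522 (higher 270 to 873, lower 255 to 649).

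The 8803 calls between 15 d and intact striatum became 1575 at a 1.5-fold threshold (1372 higher and 203 lower) and 3586 in WT alone (2284 and 1302), and ran from 7252 to 8633 with each library left out (higher 3909 to 4732, lower 3165 to 3901). Genotype differences in the change numbered 0 by edgeR, 12 by DESeq2 and 0 to 4 with each library left out, where the 4 came without WT 3 d rep 2. A library left without its replicate was assumed to vary like the others. The causes of these shifts were not tested, except that fits of 1 genotype use fewer libraries.

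The labels number replicates 1 and 2 in each group. Deviations of same-numbered libraries from their group means correlated at 0.208 in WT and 0.0437 in GS between the times, and at 0.186 at 15 d and 0.092 at 3 d between the genotypes. Neither the labels nor these values establish that the numbers pair the libraries. With the replicate block the calls were 2402 (1274 and 1128), with a replicate block within genotype 2496 (1318 and 1178), and with the replicate block 1 genotype difference was called.

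Of 79 called genes named in the account none reversed where it was tested under the 22 alternatives (the stricter filter kept 70 of them), and 69 kept their call without each of the 8 libraries. At the 1.5-fold threshold 59 lost their call, in WT alone 77 and in GS alone 19. Of genes not called, Spp1, Isg15 and C3 passed in the fit of all 16 libraries and in GS alone, Spp1, Isg15 and Cx3cr1 with the replicate block, Isg15 by DESeq2 and limma-voom, and Col1a1 with the block within genotype. Without both WT replicate 1 libraries Spp1, Isg15, C3 and P2ry12 passed. Gfap, not called, changed sign to 0.038 with the cortical covariate, and with each library left out it ran from -0.30 (without WT 15 d rep 2) to 0.052 (without WT 15 d rep 1). The median over all genes moved by under 0.01 between scalings. At 49220578 counts or more per library, counting error is largest for genes near or under 1 CPM.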

Other observations

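Further gene groups were read against the 4.51% of all genes called higher and the 3.76% called lower at 15 d than at 3 d. Of 9 genes of motile cilia, which ependymal cells carry, 3 rose (Dynlrb2, Ak7 and Dnah12), with a median log2 fold change of 0.73, and all 9 were above intact striatum. Their sum was 69.6 to 90.5 CPM at 15 d and 32.6 to 68.9 CPM at 3 d, and 10.2 to 18.3 CPM in intact striatum. The number that rose was 0 (without WT 3 d rep 1 or GS 15 d rep 2), 1 (without GS 3 d rep 1, GS 3 d rep 2, WT 15 d rep 2 or GS 15 d rep 1) and 5 (without WT 3 d rep 2) with 1 library left out. Of 15 immediate early genes, whose transcripts follow neuronal or glial stimulation, 1 rose, Btg2, and 13 were above intact striatum. Of 11 axon regrowth genes 2 rose (Jun and Sox11) and 1 fell (Tubb6). Of 16 nuclear genes of oxidative phosphorylation 2 fell (Ndufs1 and Cycs), and 12 were below intact striatum.

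Markers of cells and tissue that a dissection or the blood can add were summed in each library. Cortical excitatory neuron genes summed to 117 to 179 CPM at 15 d and 128 to 166 CPM at 3 d, and 2 of 9 rose (Cux2 and Fezf2) and 1 fell (Lamp5). Lamp5 made up a large part of these sums, averaging 74.9 CPM at 15 d and 96.0 CPM at 3 d. The median log2 fold change of the list was 0.65, so the overlap of the sums does not describe most members. Meningeal genes summed to 176 to 251 CPM at 15 d and 106 to 306 CPM at 3 d, and 1 of 6 rose (Igf2). Haemoglobin and other erythrocyte genes summed to 1.65 to 10.7 CPM at 15 d and 2.84 to 11.6 CPM at 3 d. Of 3 T and NK cell genes, 1 B cell gene and 4 erythrocyte genes 0 passed by edgeR, by DESeq2 or by limma-voom, and 0 were at an unadjusted p under 0.05. Of 8 choroid plexus genes 0 passed by edgeR, and the numbers higher and lower were 2 and 1 at an unadjusted p under 0.05, 1 and 0 by DESeq2 and 0 and 0 by limma-voom. The measured neutrophil gene, Csf3r, which macrophages and microglia can also express, rose. The part of these markers in other differences was not tested.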
